A study of Mus musculus with 16 samples.

Results

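Hair follicle stem cells labelled tHFSC were compared with interfollicular epidermis (IFE), the skin between the hair follicles, on 8 of the 16 arrays of the series. The 8 arrays were taken by their labels. They form 4 pairs, each with 1 tHFSC and 1 IFE array of the same age and genotype. The series asks how stem cells of the hair follicle divide in regeneration and aging, and the labels do not spell out the abbreviation tHFSC. Per the labels, HFSC were sorted as cells high for CD34 and ITGA6 and negative for Sca1, and IFE as cells high for ITGA6 and Sca1.

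In the first pair, both arrays came from young wild-type (WT, C57BL/6) mice. The tHFSC are of the control group treated on the skin with RU486 (2.5 mg for 5 days at 8 weeks of age), the drug that switches on the Cre recombinase of the knockouts in the series. The group labels of the other 7 arrays do not name the drug, and a protocol common to the series lists it beside plucking of the hair. The other 3 pairs came from young hCOL17A1 transgenic mice, aged WT mice and aged hCOL17A1 transgenic mice. The ages were 12 weeks in the young and 25 to 26 months in the aged groups. The labels do not give the promoter of the hCOL17A1 transgene, and they do not say whether cells of several mice were pooled on an array. The arrays of the young control pair may therefore differ in treatment as well as in cell type.

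The bulge is the lower permanent part of the hair follicle and holds stem cells that stay at rest for most of the hair cycle. WNT signals drive these cells into growth and BMP signals hold them at rest. LHX2, SOX9, TCF7L1 and NFATC1 are transcription factors known for keeping bulge identity. Basal cells of the interfollicular epidermis divide through life and feed the layers that differentiate into the skin barrier.

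Expression is given as log2 of the processed spot signal, with each array's own 75th percentile subtracted, so a level of 0 is that percentile. For the young control tHFSC array, a value close to it was subtracted. Differences are tHFSC minus IFE on this log2 scale, and 1 unit is a change of 2-fold. Levels are listed in the order young control (tHFSC) or young WT (IFE), young hCOL17A1, aged WT and aged hCOL17A1. Levels of different probes cannot be set against each other. Tests are limma fits of the 4 pairs with Benjamini-Hochberg adjustment over 30088 genes and a threshold of 0.05. Each age and genotype has 1 array per cell type, so SE and p-values rest on the spread of the pair differences, which may be technical. Both are moderated by limma, which draws each gene's variance toward the trend over all genes.

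On the 8 arrays, 68.9% to 79.0% of the probes were well above background. The IFE array of young hCOL17A1 mice stood apart. Its correlation over genes with the other IFE arrays was 0.916 to 0.923, and the other 3 IFE arrays correlated at 0.975 to 0.980 with each other. Its summed level of 28 tested ribosomal protein genes was 4636 times the 75th percentile of the array, against at most 3308 on the other IFE arrays, and that of 28 oxidative phosphorylation genes was 1017 against at most 554.5. The tHFSC arrays correlated at 0.903 to 0.929 with each other and at 0.852 to 0.917 with the IFE arrays, so these ranges overlapped. The young tHFSC arrays lie on slide 1, and the aged tHFSC and the IFE arrays lie on slide 2, in rows 1 and 2. Cell type therefore cannot be told apart from slide in the young pairs or from slide row in the aged pairs. Xist, the RNA that marks an inactive X chromosome, had levels of -5.00, 4.76, 3.96 and -4.83 in tHFSC and 4.28, 2.54, 4.71 and -4.08 in IFE. Ddx3y, a gene of the Y chromosome, had levels of -0.88, -6.57, -3.08 and -0.08 in tHFSC and -2.25, -0.64, -6.60 and 0.10 in IFE. Xist differed most in the young control pair and Ddx3y in the young hCOL17A1 pair. The labels used here do not give the sex of the mice, and the part of sex in the differences was not tested.

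tHFSC had higher levels of 341 genes (1.13% of those tested) and lower levels of 470 (1.56%). The median difference over all genes was -0.03. Under quantile normalization the counts were 327 and 302. Among the 19576 genes with an official symbol, 281 (1.44%) were higher and 393 (2.01%) lower. The median difference was 3.37 over the higher and -2.43 over the lower genes. Of the 341 genes, 123 differed by at least 4 log2 units, which is 16-fold, against 64 of the 470 lower genes. All 4 tHFSC arrays lay above all 4 IFE arrays in 5.9% of all genes and below them in 8.88%. Without the young hCOL17A1 pair, 670 genes (2.23%) were higher and 1089 (3.62%) lower. Of the original calls, 319 of 341 and 429 of 470 were among them. Leaving out any of the other pairs cut the counts to between 10 and 50 higher and between 4 and 20 lower genes, with 10 and 4 without the aged WT pair, 48 and 20 without the young control pair and 50 and 16 without the aged hCOL17A1 pair. Within slide 2, the 2 aged pairs alone gave 412 higher and 531 lower genes, of which 238 and 256 were called in the 4 pairs as well. In bulk samples, fewer cells of a type and less RNA per cell cannot be told apart.

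Among the genes with the highest differences were regulators, receptors and matrix genes. Dab2, an adaptor of clathrin-mediated endocytosis, had levels of 4.25, 4.16, 5.21 and 5.19 in tHFSC and -6.27, -5.87, -6.74 and -6.30 in IFE. It was well above background on every tHFSC array and on no IFE array, and its signal was at least 1249-fold higher in tHFSC (adjusted p = 0.00237). Its other probe differed by 0.03. Such bounds set the tHFSC mean against the higher of the gene's level and the detection limit on each IFE array. The limit is the lowest level of any probe well above background on that array, and not a limit of the gene's own probe. The bounds are therefore approximate and hold for the processing described. Bcl3, Fzd10, Il33, Ly6c1, Slc24a3 and the lower Serpinb genes described were well above background on 3 of the 4 tHFSC arrays, and Fgf18, Gli1, Gli2, Krt6a, Robo2 and Runx1 on 3 of the 4 IFE arrays. Differences given for these genes take in the level of the remaining array, which was not well above background. In the 8 HFSC arrays outside the comparison, Dab2 lay at 1.70 to 3.90.

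Tbx1, a T-box transcription factor, had levels of 5.92, 5.53, 6.48 and 6.78 in tHFSC and -3.99, -0.43, -4.20 and -3.63 in IFE. The groups did not overlap, and the young hCOL17A1 array was the highest of the IFE arrays. The difference was 9.24 ± 0.81 (SE, adjusted p = 0.00846). Lhx2, a LIM-homeodomain factor of hair follicle stem cells, had levels of 5.79, 5.03, 5.42 and 6.46 in tHFSC and -2.27, -1.11, -2.49 and -1.49 in IFE. The difference was 7.51 ± 0.41 (SE, adjusted p = 0.00415). Lhx2 lay at 4.83 to 5.78 in the 8 other HFSC arrays, above each IFE array.

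Col8a2, a chain of the short-chain collagen VIII, had levels of 4.78, 4.33, 5.04 and 5.23 in tHFSC and -4.11, -3.39, -2.52 and -3.73 in IFE and a difference of 8.28 ± 0.37 (SE, adjusted p = 0.00237). Its other probe differed by 2.79. Ednra, a receptor for endothelin, and Adcy1, an adenylate cyclase that makes cyclic AMP, were well above background on the 4 tHFSC arrays and on no IFE array. Their signals were at least 147-fold (adjusted p = 0.00272) and at least 32-fold higher (adjusted p = 0.00415). Shisa2, an endoplasmic reticulum protein that holds back Frizzled and FGF receptors, was at least 92.3-fold higher (adjusted p = 0.00549), and Pdzrn4 at least 358-fold (adjusted p = 0.00237). Il31ra, a subunit of the receptor for the itch cytokine IL-31, had levels of 4.79, 4.92, 5.05 and 5.08 in tHFSC and -1.48, -1.36, -1.92 and -1.67 in IFE. The difference was 6.57 ± 0.28 (SE, adjusted p = 0.00237). Ccn2, which encodes the matricellular protein CTGF, had levels of 7.86, 7.54, 7.59 and 7.01 in tHFSC and -0.50, 3.00, -0.50 and -0.67 in IFE. It stood 7.17 ± 0.65 log2 units higher in tHFSC (adjusted p = 0.00927), and the young hCOL17A1 array was again the highest of the IFE arrays.

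**Figure D1:**
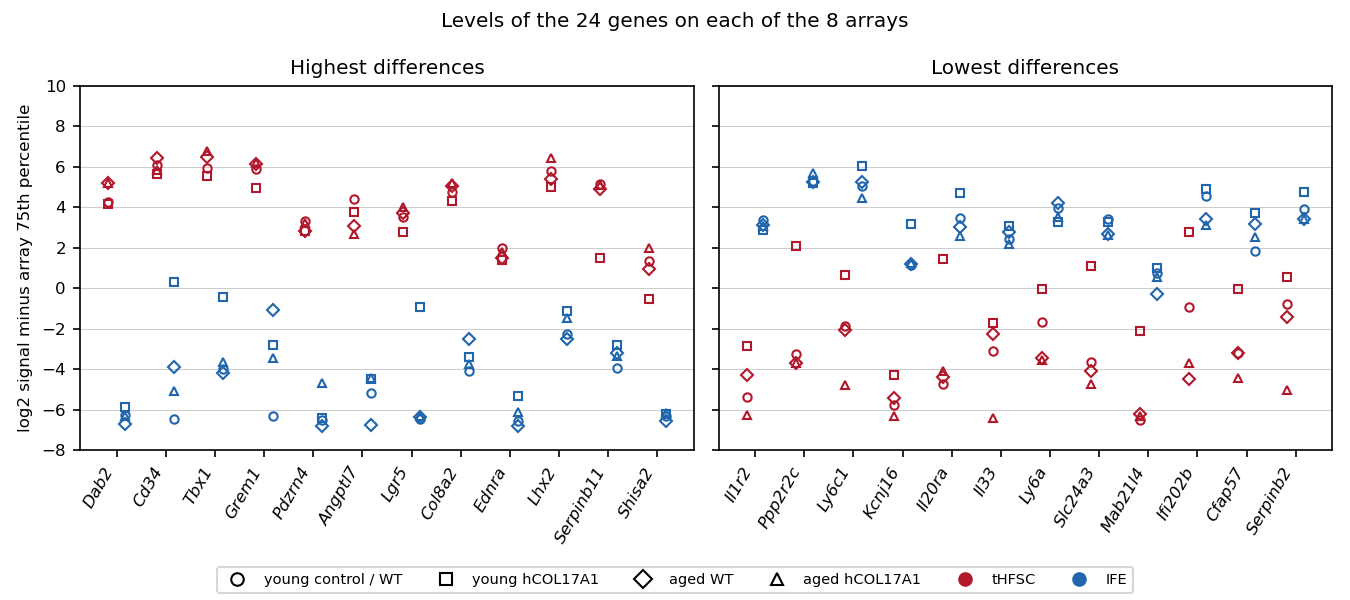
Levels on each of the 8 arrays (y axis, log2 signal relative to the array's 75th percentile) of the 12 genes with the highest and the 12 with the lowest differences, red for tHFSC and blue for IFE, with a marker shape for each pair. No gene has overlapping groups, and the young hCOL17A1 arrays (squares) often lie nearest to the opposite group, as for Cd34 and Lgr5 in IFE and Ppp2r2c and Il20ra in tHFSC.

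The genes with the lowest differences included cell-surface receptors, a channel and transporters. Il1r2, the decoy receptor that binds interleukin-1 without signalling, had levels of -5.39, -2.84, -4.29 and -6.24 in tHFSC and 3.38, 2.90, 3.15 and 3.05 in IFE. It was well above background on 1 of the 4 tHFSC arrays. With the other 3 at the higher of their level and their detection limit, its signal was at least 210-fold higher in IFE (adjusted p = 0.00714). Kcnj16, an inward-rectifier potassium channel, had levels of -5.76, -4.28, -5.41 and -6.31 in tHFSC and 1.13, 3.19, 1.18 and 1.23 in IFE. On no tHFSC array was it well above background, so its signal was at least 127-fold higher in IFE (adjusted p = 0.00237).

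Ppp2r2c, a regulatory subunit of protein phosphatase 2A, had levels of -3.26, 2.10, -3.71 and -3.69 in tHFSC and 5.31, 5.22, 5.26 and 5.68 in IFE. The young hCOL17A1 tHFSC array lay more than 5 units above the other tHFSC arrays, and the difference over the 4 pairs was -7.51 ± 1.06 (SE, adjusted p = 0.0271). Slc24a3, a sodium-calcium-potassium exchanger, was also highest among tHFSC on the young hCOL17A1 array, at -3.63, 1.1, -4.07 and -4.74 in tHFSC and 3.42, 3.29, 2.69 and 2.65 in IFE, with a difference of -5.85 ± 0.89 (SE, adjusted p = 0.0322). Abcc4, an exporter of cyclic nucleotides and prostaglandins, was well above background on 1 of the 3 tHFSC arrays with a flag and at least 41.9-fold higher in IFE by the same reckoning (adjusted p = 0.00574). Bcl3, a nuclear partner of NF-kappaB, differed by -4.28 ± 0.32 (adjusted p = 0.00714) and Cux1, a homeobox repressor, by -3.61 ± 0.27 (adjusted p = 0.00685). Fcgbp, a mucin-like IgG Fc-binding protein, was strongly expressed in both, at 5.75, 5.67, 6.07 and 5.67 in tHFSC and 8.39, 7.83, 8.10 and 8.28 in IFE. Its tHFSC arrays lay within 0.4 units of each other and below every IFE array, and the difference was -2.36 ± 0.17 (SE, adjusted p = 0.00685).

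**Figure D2:**
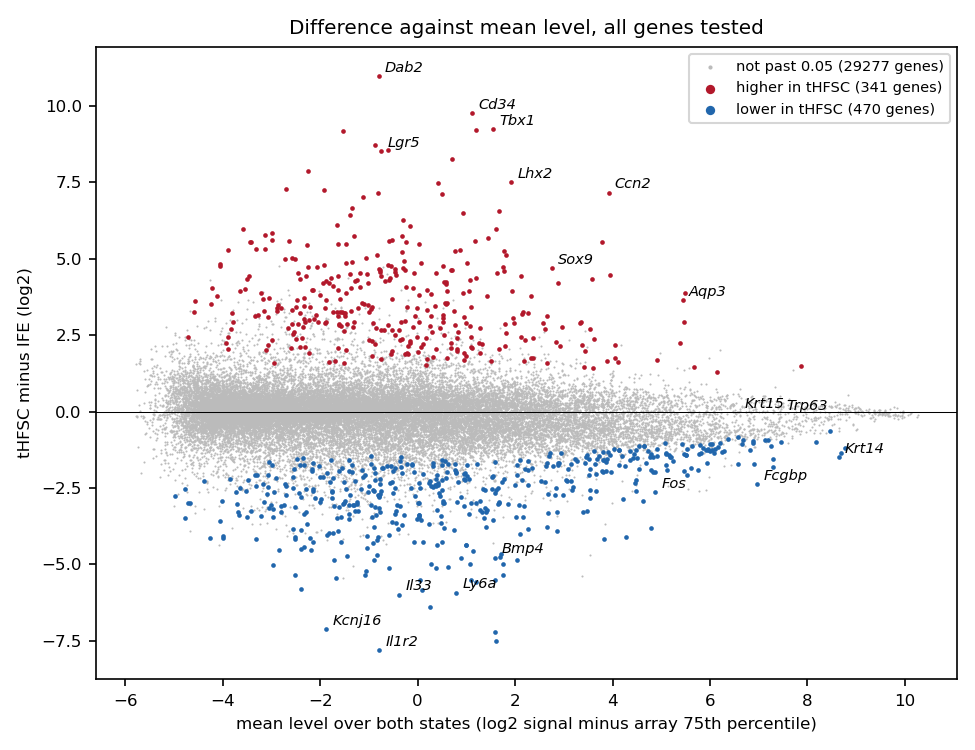
Difference between tHFSC and IFE (y axis, log2) against the mean level over both (x axis, log2 signal relative to the array's 75th percentile) for the 30088 genes tested, with the 341 higher genes in red and the 470 lower in blue. The points are fitted values, including genes at background in a group, and the named genes run from Dab2 at the top to Il1r2 at the bottom, and Krt15 and Trp63 lie at 0 at high levels.

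The sort used CD34, ITGA6 and Sca1, so their genes check the labels and are no finding. Cd34 had levels of 6.09, 5.66, 6.43 and 5.84 in tHFSC and -6.45, 0.31, -3.87 and -5.09 in IFE, and Ly6a, which encodes Sca1, had levels of -1.67, -0.05, -3.43 and -3.55 in tHFSC and 3.99, 3.27, 4.22 and 3.51 in IFE. Cd34 was thus higher in tHFSC and Ly6a in IFE in each pair, as the gates require. Cd34 was well above background on 2 of the 4 IFE arrays, and the young hCOL17A1 array stood at 0.31. Of the short marker lists, 6 of 7 bulge markers were higher in tHFSC and 1 of 5 epidermal markers was lower. The former include Cd34 and the latter is Ly6a, so no epidermal marker outside the sort passed in the 4 pairs. Without the young hCOL17A1 pair, 6 bulge markers were higher and 4 of the 5 epidermal markers lower. Itga6 was expressed in both, with a difference of -0.82 ± 0.21 (SE, adjusted p = 0.114).

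Of the lists, that of genes known for the bulge had the most members called. Of 30 listed genes, 29 were tested (Itga8 was not), 17 were higher in tHFSC and 1 was lower, against 1.13% and 1.56% of all genes. The 17 include the sort gene Cd34, whose direction the gates set. The median difference was 3.98, against -0.03 over all genes. Pair medians were 4.65 in the young control, 2.46 in the young hCOL17A1, 3.74 in the aged WT and 4.03 in the aged hCOL17A1 pair. Without the young hCOL17A1 pair, 20 were higher and 1 lower. Here and below, list counts are given for this leave-out alone, which raised the calls. Leaving out any other pair left between 10 and 50 higher and between 4 and 20 lower genes in all.

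Sox9, a transcription factor that keeps cells in the hair follicle fate, had levels of 5.33, 4.62, 4.82 and 5.64 in tHFSC and -0.13, 1.11, 0.10 and 0.50 in IFE and a difference of 4.70 ± 0.38 (SE, adjusted p = 0.00763). Tcf7l1, the repressor of WNT target genes also called TCF3, had levels of -0.66, -1.88, -1.77 and -0.71 in tHFSC and -6.58, -6.45, -6.83 and -6.30 in IFE. It was well above background on no IFE array and at least 20.1-fold higher in tHFSC (adjusted p = 0.00685). Nfatc1, a calcium-dependent factor that keeps bulge cells quiescent, had levels of 5.83, 5.21, 5.63 and 6.30 in tHFSC and 2.42, -1.26, 1.89 and 2.56 in IFE. Here the young hCOL17A1 array was the lowest of the IFE arrays, and the difference was 4.34 ± 0.55 (SE, adjusted p = 0.0208). Runx1 differed by 2.92 ± 0.39 (SE, adjusted p = 0.0232), and Vdr, the vitamin D receptor that the hair cycle needs, by 2.04 ± 0.36 (SE, adjusted p = 0.0476).

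Lgr5, the R-spondin receptor that marks the lower bulge, had levels of 3.52, 2.79, 3.72 and 4.01 in tHFSC and -6.44, -0.92, -6.39 and -6.30 in IFE. It was well above background on 1 IFE array, that of young hCOL17A1 mice. With the other 3 at their detection limits, its signal was at least 241-fold higher in tHFSC (adjusted p = 0.0242). Its other probe differed by 3.24. Cd200, an immune-inhibitory surface protein, had levels of 2.70, 1.95, 1.72 and 2.42 in tHFSC and -2.80, -1.18, -3.06 and -2.34 in IFE and a difference of 4.54 ± 0.43 (SE, adjusted p = 0.0103). Angptl7, a secreted angiopoietin-like protein, was at least 368-fold higher (adjusted p = 0.00427). Fgf18, a factor that keeps the follicle at rest, had levels of 4.24, 2.34, -0.43 and 0.51 in tHFSC and -3.78, -0.12, -4.50 and -3.92 in IFE. The young tHFSC arrays lay above the aged ones, and its difference of 4.75 ± 0.86 missed the threshold (adjusted p = 0.05005).

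Krt15, whose promoter is widely used to target bulge cells, did not follow the list. Its levels were 6.66, 6.40, 6.51 and 6.75 in tHFSC and 6.53, 6.60, 6.87 and 6.38 in IFE, so the groups overlapped. The difference was -0.02 ± 0.18 (SE, adjusted p = 0.977), with a 95% interval of -0.45 to 0.42. The 1 lower gene of the list, Col16a1, differed by -3.05 ± 0.33 (SE, adjusted p = 0.0143), but its 3 probes ran from -3.05 to -0.05.

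**Figure D3:**
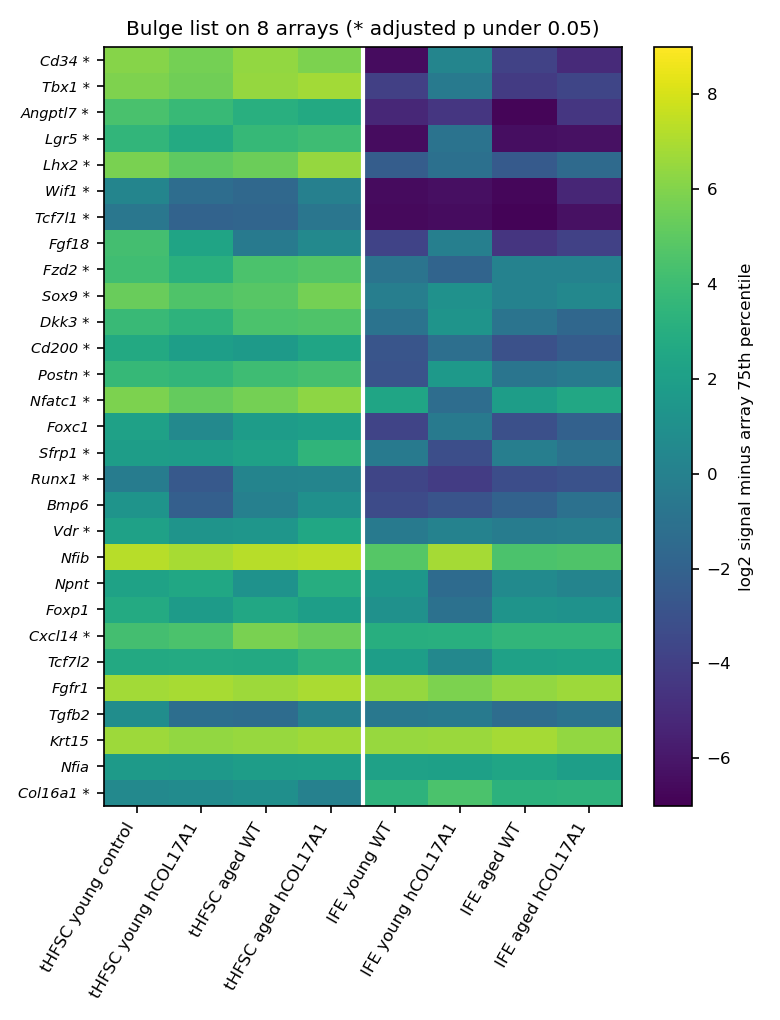
Levels of the 29 tested bulge genes (rows) on the 4 tHFSC and 4 IFE arrays (columns), coloured by log2 signal relative to the array's 75th percentile, with asterisks at adjusted p under 0.05. Most rows change colour at the white line between tHFSC and IFE, the second IFE column is the brightest of the 4 for Cd34, Tbx1 and Lgr5, and Krt15 keeps 1 colour throughout.

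In the WNT pathway, several receptors and inhibitors were higher in tHFSC and several ligands lower. Of 60 listed genes, 54 were tested, 9 were higher and 6 lower. The shares over all genes, 1.13% higher and 1.56% lower, stand beside this and each list count below. The lists share members. Of the 9 higher genes, Fzd2, Lgr5, Wif1, Sfrp1, Dkk3 and Tcf7l1 are also among the higher genes of the bulge list. Of 13 receptors tested, 5 were higher and 1 lower, with a median difference of 2.64. Fzd2, a Frizzled receptor for WNT proteins, had levels of 4.12, 3.18, 4.45 and 4.70 in tHFSC and -0.83, -1.82, 0.09 and 0.09 in IFE and a difference of 4.73 ± 0.27 (SE, adjusted p = 0.00427). Fzd7 differed by 4.37 ± 0.34 (adjusted p = 0.00714), Fzd1 by 3.08 ± 0.35 (adjusted p = 0.0163) and the R-spondin receptor Lgr4 by 3.07 ± 0.52 (adjusted p = 0.0442). Fzd10 was the exception, at -2.46, -0.44, -1.67 and -4.21 in tHFSC and 2.58, 2.26, 1.68 and 1.74 in IFE, with a difference of -4.26 ± 0.58 (SE, adjusted p = 0.0252).

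Of 15 WNT and R-spondin ligands tested, none was higher and 4 were lower. Wnt10a had levels of -0.17, 1.69, 1.27 and 1.27 in tHFSC and 4.40, 4.93, 3.93 and 4.05 in IFE and differed by -3.31 ± 0.39 (SE, adjusted p = 0.0174). Wnt3a was well above background on 2 of the 4 tHFSC arrays and at least 16.9-fold higher in IFE (adjusted p = 0.016). Wnt4 and Rspo3 differed by -3.22 ± 0.55 (adjusted p = 0.0454) and -3.12 ± 0.36 (adjusted p = 0.0163). Of 12 secreted or intracellular antagonists, 3 were higher. Wif1, which binds WNT proteins outside the cell, was well above background on no IFE array and at least 30.2-fold higher (adjusted p = 0.00685). Dkk3 differed by 4.58 ± 0.68 (SE, adjusted p = 0.0308) and the decoy receptor Sfrp1 by 3.51 ± 0.55 (SE, adjusted p = 0.0347). Axin2, a feedback inhibitor that WNT signals induce, had levels of 0.07, 0.16, -0.34 and -0.46 in tHFSC and 1.84, 2.72, 1.79 and 1.91 in IFE. It was lower in tHFSC by a difference of -2.21 ± 0.29 (adjusted p = 0.0219). Of the 15 WNT nuclear factors and targets tested, Axin2 was the 1 lower gene, and 2, Tcf7l1 and Lgr5, were higher. In that group 10 differences were above 0 and 5 below, with a median of 0.25.

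In the BMP and TGF-beta pathways, several secreted antagonists and matrix regulators were higher and the ligand Bmp4 lower. Of 45 listed genes, 42 were tested, 7 were higher and 1 lower. Of 11 antagonists and matrix regulators, 5 were higher. Grem1, an extracellular BMP antagonist, had levels of 5.91, 4.96, 6.12 and 6.20 in tHFSC and -6.31, -2.79, -1.09 and -3.44 in IFE and a difference of 9.20 ± 0.83 (SE, adjusted p = 0.00896), with 3 of 4 IFE arrays well above background. Fst, which binds activin, differed by 3.46 ± 0.45 (SE, adjusted p = 0.0222), and Fstl1 had levels of 1.74, 2.27, 2.71 and 2.50 in tHFSC and -3.32, -2.52, -2.96 and -2.90 in IFE. Fstl1 differed by 5.23 ± 0.29 (SE, adjusted p = 0.00415). Ltbp1 and Ltbp2, matrix proteins of the latent TGF-beta binding protein family, differed by 5.24 ± 0.85 (adjusted p = 0.0388) and 5.69 ± 0.48 (adjusted p = 0.00793).

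Bmp4 had levels of -1.37, 0.45, -1.02 and -1.27 in tHFSC and 3.90, 4.67, 3.41 and 3.93 in IFE, with no overlap between the groups. It differed by -4.78 ± 0.32 (SE, adjusted p = 0.00574), and both of its probes were lower. Id2, a target of BMP signals, was higher in tHFSC, at 2.06, 2.14, 1.64 and 1.58 in tHFSC and -1.28, -0.85, -2.56 and -1.21 in IFE. The difference was 3.33 ± 0.34 (SE, adjusted p = 0.0122). None of the 10 BMP and TGF-beta receptors tested passed the threshold, and without the young hCOL17A1 pair 2 of them were lower.

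Of 11 Hedgehog genes tested, 4 were higher in tHFSC and none lower. Gli1, the transcription factor induced by the pathway, had levels of 1.65, 1.06, 0.68 and 2.47 in tHFSC and -3.54, -2.92, -3.26 and -4.57 in IFE, and the groups did not overlap. The difference was 5.04 ± 0.57 (SE, adjusted p = 0.016), and its other probe differed by 0.70. Gli2 and Gli3, the factors that relay the signal, differed by 4.49 ± 0.38 (adjusted p = 0.00793) and 1.81 ± 0.30 (adjusted p = 0.0421). Gas1, a co-receptor, differed by 2.37 ± 0.36 (adjusted p = 0.0313), but its 3 probes ran from -0.04 to 2.37. Ptch1, the receptor and another target of the pathway, had levels of -2.34 to -0.53 in tHFSC and -1.52 to -1.29 in IFE and a difference of -0.04 ± 0.41 (adjusted p = 0.976). Its 2 probes differed by -0.04 and 2.39.

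Of 16 Notch genes tested, none was higher and 2 were lower, against 1.13% and 1.56% of all genes. The ligand Dll1 differed by -3.56 ± 0.45 (SE, adjusted p = 0.0208) and the receptor Notch3 by -3.12 ± 0.45 (SE, adjusted p = 0.0282).

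**Figure D4:**
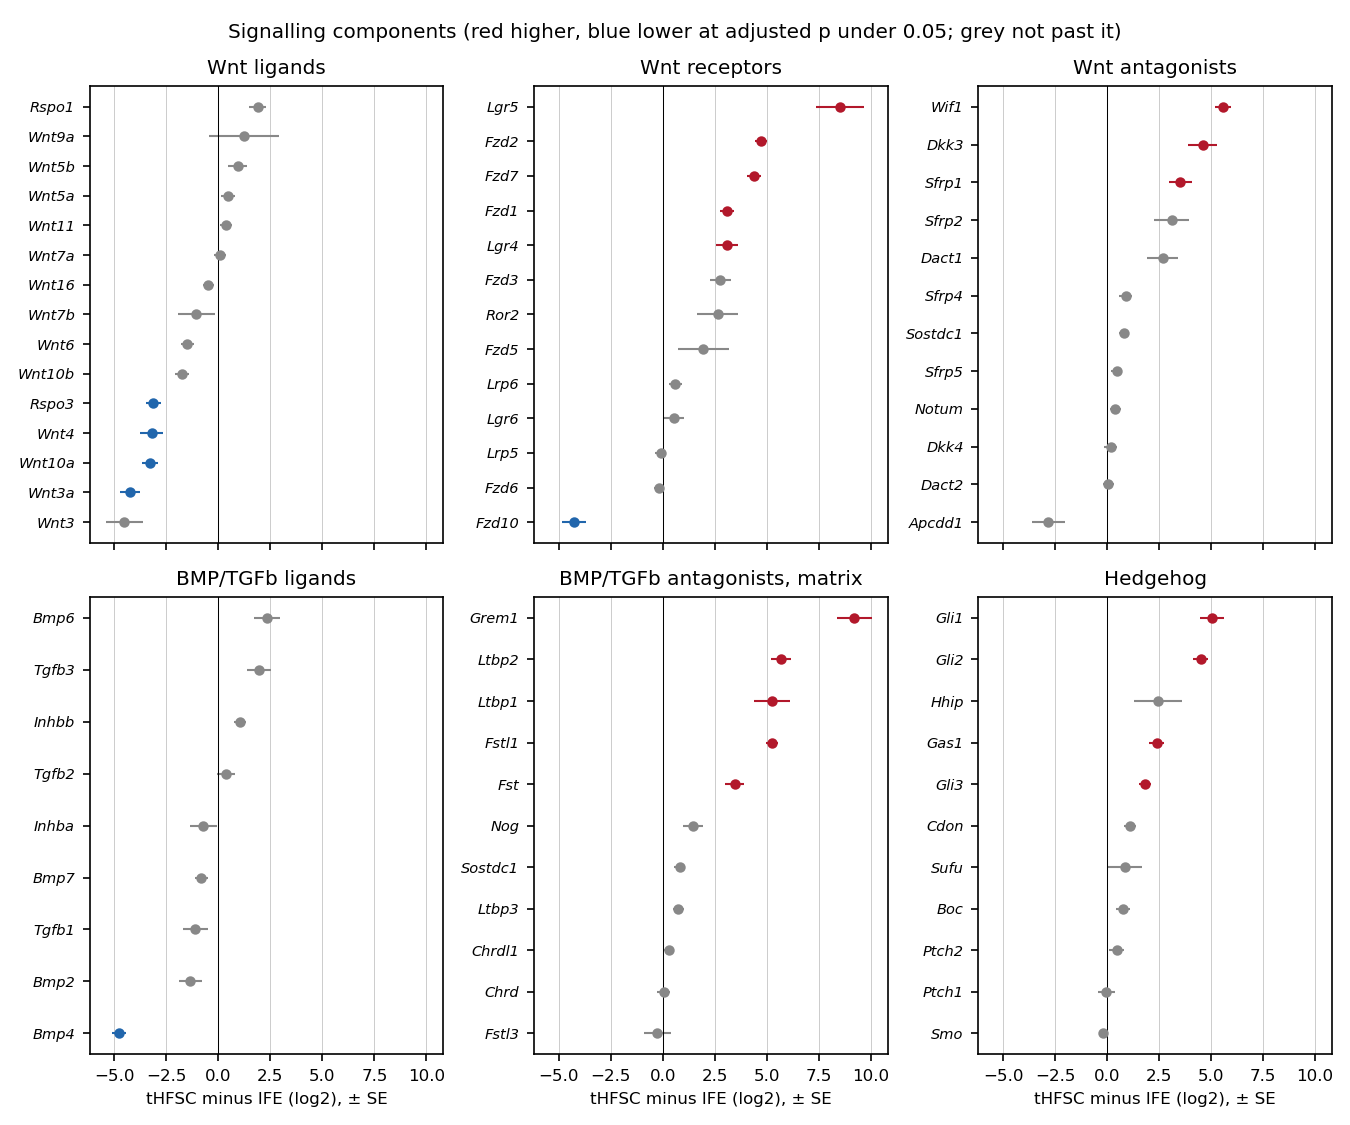
Difference between tHFSC and IFE (x axis, log2, with SE over 4 pairs) for each tested WNT ligand, WNT receptor, WNT antagonist, BMP or TGF-beta ligand, BMP or TGF-beta antagonist or matrix regulator, and Hedgehog gene. Red points (higher) are Frizzled and LGR receptors, antagonists such as Wif1 and Grem1 and the Gli genes, and blue points (lower) are Wnt3a, Wnt4, Wnt10a, Rspo3, Fzd10 and Bmp4.

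Among growth factors, 3 of 36 tested genes were higher and 2 lower, against 1.13% and 1.56% of all genes. Fgf1 had levels of 4.74, 3.80, 4.86 and 4.99 in tHFSC and -2.79, 0.70, -1.77 and -1.64 in IFE and differed by 5.97 ± 0.73 (SE, adjusted p = 0.0193). Igfbp5 and Igfbp6, which bind insulin-like growth factors, differed by 5.11 ± 0.33 (adjusted p = 0.00574) and 4.04 ± 0.42 (adjusted p = 0.0132). The EGF receptor ligands Hbegf and Epgn were lower, by differences of -4.36 ± 0.63 (adjusted p = 0.0289) and -4.97 ± 0.85 (adjusted p = 0.0442). Without the young hCOL17A1 pair, 7 genes of the list were higher and 2 lower.

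Of 34 adhesion and matrix genes tested, 5 were higher and 1 lower. Itgb8, an integrin subunit that frees active TGF-beta, had levels of 0.36, -1.58, -0.34 and 1.19 in tHFSC and -3.59, -4.87, -3.05 and -4.12 in IFE. With 2 of the 4 IFE arrays well above background, it was at least 14.1-fold higher (adjusted p = 0.0186). Egfl6, a basement membrane protein of the upper bulge, differed by 2.90 ± 0.41 (adjusted p = 0.0266), Postn, the matricellular protein periostin, by 4.54 ± 0.72 (adjusted p = 0.0352) and Fbln1, an elastic-fibre protein, by 5.12 ± 0.50 (adjusted p = 0.0109). Over all 35 collagen genes tested, a group chosen after its values were seen, 6 were higher and 2 lower. Besides Col8a2, the higher ones were Col1a2, Col6a2, Col6a1 and Col12a1, with differences from 3.13 ± 0.42 to 4.54 ± 0.34, and Col5a2, which was well above background on no IFE array and at least 15.4-fold higher (adjusted p = 0.00968). Col23a1, a transmembrane collagen, was lower by a difference of -3.37 ± 0.29 (adjusted p = 0.00842).

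Col1a2 is also a fibroblast gene. Its levels were 2.71, 2.91, 2.24 and 2.71 in tHFSC and -1.32, -2.45, -1.88 and -1.92 in IFE, and its difference was 4.54 ± 0.34 (SE, adjusted p = 0.00685). Of 6 tested fibroblast markers, Col1a2 was higher, Thy1 was lower with a difference of -4.99 ± 0.64 (adjusted p = 0.0211) and the other 4 did not pass. Their summed linear level (signal over the 75th percentile of the array) ran from 6.17 to 11.3 in tHFSC and from 13.6 to 28.0 in IFE, and Thy1, also a T cell marker, had levels of 3.67, 4.42, 4.78 and 4.08 in IFE, which is most of that sum. The median difference of the 6 was 0.56, with 4 above 0, and it turned to -0.01 under the normexp background correction. Pdgfrb, Col1a1 and Lum were not tested, since their probes missed the filter on dim spots. The part of fibroblast RNA in the matrix genes was not tested.

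Of 33 genes of axon guidance and neurotrophin signalling tested, 4 were higher and 4 lower. Sema3e, a secreted semaphorin, had levels of 0.18, -0.03, 0.33 and 0.73 in tHFSC and -5.71, -3.79, -4.0 and -4.17 in IFE. With 2 of the 4 IFE arrays well above background, it was at least 24.9-fold higher (adjusted p = 0.00793). Bdnf, the neurotrophin, differed by 2.93 ± 0.34 (adjusted p = 0.0174), the ephrin Efnb2 by 2.19 ± 0.29 (adjusted p = 0.0232) and the Slit receptor Robo2 by 1.91 ± 0.34 (adjusted p = 0.0497). Lower in tHFSC were Sema3f (-3.36 ± 0.28, adjusted p = 0.00793), Robo1 (-3.52 ± 0.50, adjusted p = 0.0281), the neurotrophin receptor Ngfr (-2.66 ± 0.35, adjusted p = 0.0232) and the ephrin receptor Epha2 (-1.69 ± 0.27, adjusted p = 0.0376). In retinoid handling, Cyp26b1, which breaks down retinoic acid, and Crabp1, which binds it, were higher by 4.32 ± 0.40 (adjusted p = 0.00928) and 3.41 ± 0.61 (adjusted p = 0.0488). Aldh1a1, which makes retinoic acid, was lower by a difference of -2.17 ± 0.29 (adjusted p = 0.0233).

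Several cytokine receptors and antigen presentation genes were lower in tHFSC. Of 37 cytokine and chemokine genes tested, 3 were higher and 4 lower, and 30 had a difference below 0. Il33, an alarmin of barrier epithelia, had levels of -3.10, -1.72, -2.27 and -6.40 in tHFSC and 2.44, 3.09, 2.77 and 2.16 in IFE, and no tHFSC array reached the IFE range. The difference was -5.99 ± 0.66 (SE, adjusted p = 0.0155). Il20ra, a receptor subunit for IL-20 family cytokines, had levels of -4.74, 1.46, -4.39 and -4.09 in tHFSC and 3.47, 4.71, 3.02 and 2.58 in IFE. The young hCOL17A1 tHFSC array was nearer to IFE than the other 3, of the 4 only 1 was well above background, and the signal was at least 83.6-fold higher in IFE (adjusted p = 0.0208). Il6ra, the IL-6 receptor, differed by -5.51 ± 0.82 (SE, adjusted p = 0.0307). Il31ra, described above, is a receptor that was higher. The chemokines Cxcl12 and Cxcl14 were higher, by 2.92 ± 0.47 (adjusted p = 0.0385) and 1.64 ± 0.27 (adjusted p = 0.0388). Without the young hCOL17A1 pair, 9 genes of the list were lower and 3 higher.

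Of 19 interferon-regulated genes tested, 7 were lower and none higher, with a median difference of -1.70. Tap1, the peptide transporter of MHC class I loading, had levels of -3.36, -2.92, -2.82 and -3.56 in tHFSC and -0.68, -0.40, -0.04 and -0.28 in IFE and a difference of -2.81 ± 0.27 (SE, adjusted p = 0.0101). Psmb8, a subunit of the immunoproteasome, differed by -2.51 ± 0.28 (adjusted p = 0.0157), the class I genes H2-K1 and B2m by -1.70 ± 0.22 (adjusted p = 0.0221) and -1.27 ± 0.18 (adjusted p = 0.0268). Oas1a, an antiviral sensor of double-stranded RNA, differed by -2.96 ± 0.28 (adjusted p = 0.0104). Of 11 tested members of the Ly6 family, small lipid-anchored surface proteins, 5 were lower and none higher. Ly6a, 1 of the 5, is the sort gene. Ly6c1 differed by -7.21 ± 0.62 (adjusted p = 0.00823), with its other probe at -0.82, and Ly6d had levels of -0.21, 2.22, 0.62 and 0.45 in tHFSC and 4.44, 5.81, 4.21 and 3.70 in IFE. Ly6d differed by -3.77 ± 0.32 (SE, adjusted p = 0.00793).

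Immediate early genes respond within minutes to stimuli that include cell dissociation. Of 20 tested, 5 were lower, none was higher, and 19 had a difference below 0. Fos had levels of 2.37, 5.03, 2.68 and 4.16 in tHFSC and 5.89, 7.15, 5.82 and 5.89 in IFE and a difference of -2.62 ± 0.35 (SE, adjusted p = 0.0232). Egr1 differed by -1.57 ± 0.16 (adjusted p = 0.0123), Zfp36 by -2.93 ± 0.39 (adjusted p = 0.0232), Nr4a1 by -2.74 ± 0.36 (adjusted p = 0.0226) and Klf6 by -1.29 ± 0.23 (adjusted p = 0.0493). In both cell types the young hCOL17A1 array was the highest of the 4 for Fos, Egr1 and Nr4a1. Without that pair, 12 of the 20 were lower. Handling time of the sorted cells is not in the labels, and its part in these differences was not tested.

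Both cell types had high levels of basal keratins. Of 16 genes of the basal epidermis tested, 5 were lower and 1 higher. The 5 were Krt14, Mt2, Ly6e, Ifitm3 and the sort gene Ly6a, whose direction the gates set. Ly6a and Ly6e are also counted in the Ly6 list and Ifitm3 in the interferon list. Krt14, a keratin of basal cells, had levels of 7.90, 8.02, 8.15 and 7.52 in tHFSC and 9.51, 8.85, 9.55 and 9.64 in IFE and a difference of -1.49 ± 0.21 (SE, adjusted p = 0.0266). Krt5, its partner, had a difference of -0.65 ± 0.16 (SE, adjusted p = 0.106). Trp63, the master regulator of stratified epithelia, had levels of 7.30, 7.31, 7.34 and 7.67 in tHFSC and 7.43, 7.42, 7.57 and 7.51 in IFE and a difference of -0.08 ± 0.13 (adjusted p = 0.821, 95% interval -0.40 to 0.24), though its 4 probes ran from -0.12 to 1.79. Mt2, a metallothionein, was lower by a difference of -1.82 ± 0.22 (adjusted p = 0.0182). The higher gene was Aqp3, the water and glycerol channel of keratinocytes. Its levels were 7.60, 6.73, 7.32 and 7.42 in tHFSC and 4.72, 2.31, 3.69 and 3.77 in IFE, and it differed by 3.64 ± 0.28 (SE, adjusted p = 0.00714).

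Of 43 differentiation genes tested, 3 were higher and 7 lower. The 12 regulators among them had differences below 0 throughout, and 4 were lower. Grhl1, a grainyhead factor of barrier formation, had levels of 4.44, 5.67, 4.20 and 3.68 in tHFSC and 6.50, 7.63, 6.18 and 5.98 in IFE and a difference of -2.08 ± 0.17 (SE, adjusted p = 0.00793). Gata3 differed by -1.96 ± 0.22 (adjusted p = 0.0157) and Pou3f1 by -2.58 ± 0.42 (adjusted p = 0.0383). The desmosomal genes Pkp1 and Dsg1a differed by -1.95 ± 0.21 (adjusted p = 0.0143) and -3.30 ± 0.53 (adjusted p = 0.0362). Without the young hCOL17A1 pair, 16 genes of the list were lower, 9 of them regulators, and 3 higher.

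Krt1, the first keratin of suprabasal cells, had levels of 1.25, 4.58, -0.22 and -2.86 in tHFSC and 6.62, 5.28, 6.37 and 6.02 in IFE. The young hCOL17A1 tHFSC array lay near the IFE range, and the difference of -5.38 ± 1.23 missed the threshold (adjusted p = 0.0887). Without that pair it was -6.95, adjusted p = 0.0112. Tgm5, a transglutaminase that cross-links the cornified envelope, went the other way. Its levels were 3.98, 3.72, 4.62 and 4.38 in tHFSC and -1.77, -1.18, -3.49 and -2.81 in IFE, and it was higher in tHFSC by 6.49 ± 0.56 (SE, adjusted p = 0.00842). Calml3, a calmodulin-like protein of keratinocytes, and Flg2, a filaggrin relative, were higher by 4.47 ± 0.73 (adjusted p = 0.0388) and 1.89 ± 0.28 (adjusted p = 0.0308). Krt6a, a keratin of the inner bulge and of activated keratinocytes, had levels of 1.67, 2.46, 3.71 and 0.96 in tHFSC and -1.83, -4.55, -3.67 and -3.44 in IFE and a difference of 5.57 ± 0.72 (SE, adjusted p = 0.0216).

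Of 43 cell cycle genes tested, 2 were lower and 1 was higher, against 1.56% and 1.13% of all genes. The higher gene was Gas1, listed with the G1 cyclins and inhibitors. It is also counted among the Hedgehog genes, where the spread of its probes is given. Of the 43, 36 had a difference below 0, as did 27 of 28 ribosomal protein genes, 25 of 28 oxidative phosphorylation genes and 15597 of all 30088 genes. Cdt1, which licenses replication origins, had levels of -1.25, -3.29, -2.95 and -2.69 in tHFSC and 0.31, 1.27, 0.76 and 1.07 in IFE and a difference of -3.40 ± 0.51 (SE, adjusted p = 0.0316). Mcm6, a subunit of the replicative helicase, differed by -1.47 ± 0.26 (SE, adjusted p = 0.0461). Mki67 had levels of 2.45, 0.71, -1.83 and 0.81 in tHFSC and 1.94, 2.02, 2.43 and 3.33 in IFE, so the groups overlapped, and its difference of -1.90 ± 0.75 did not pass (adjusted p = 0.261). The list's median was 0.00 in the young control pair and -1.19 to -1.51 in the other pairs. Of 16 p53 and senescence genes tested, 4 were lower and none higher. They were Gadd45a, a DNA damage response gene (-2.98 ± 0.40, adjusted p = 0.0232), Plk2 (-2.98 ± 0.38, adjusted p = 0.0212), the death receptor Fas (-2.78 ± 0.42, adjusted p = 0.0322) and Pmaip1, which encodes NOXA (-2.39 ± 0.38, adjusted p = 0.0351).

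**Figure D5:**
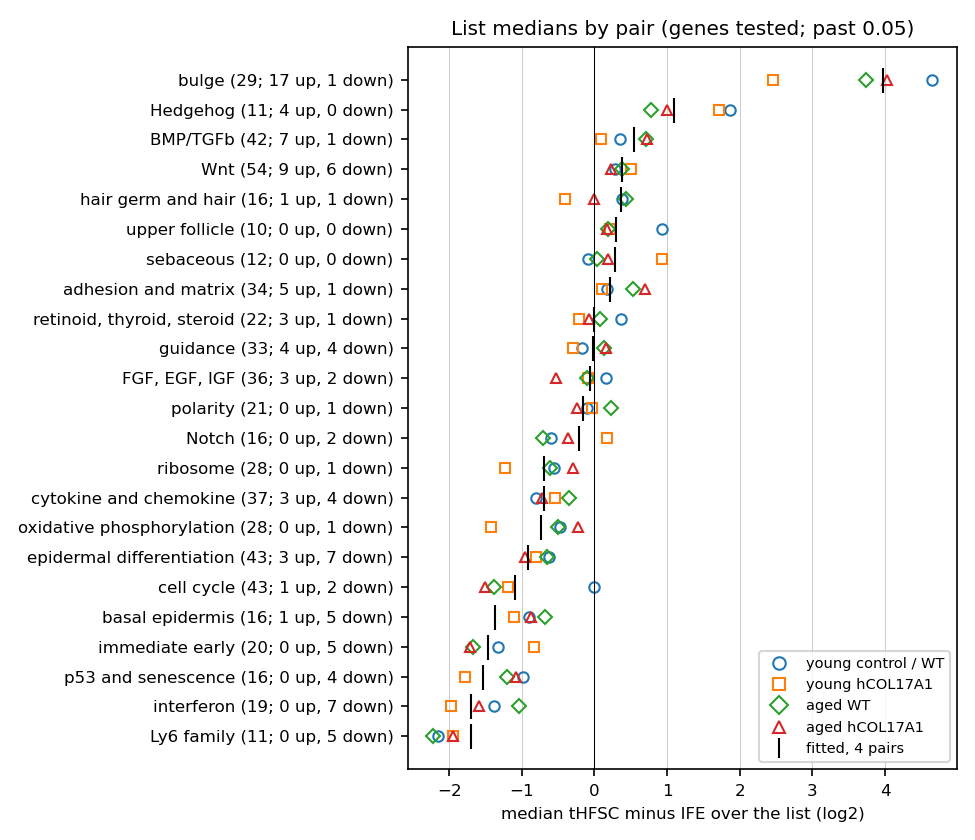
Median difference between tHFSC and IFE (x axis, log2) of each pathway or compartment list (short marker lists and gene families are not drawn) in each of the 4 pairs (symbols) and in the fit (black bars), with the number of genes tested and called beside its name. Of the lists drawn, the bulge list has the highest median, its young hCOL17A1 pair at 2.46, and the Ly6 and interferon lists have medians of -1.70.

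Of 34 Hox genes tested, which encode homeodomain factors of body position, 3 were higher and 1 was lower, and without the young hCOL17A1 pair 10 were higher and 1 lower. The family was chosen after its values were seen. Hoxd8 had levels of -1.95, -1.06, 1.47 and 1.24 in tHFSC and -6.36, -5.15, -6.58 and -5.55 in IFE. It was well above background on no IFE array and at least 41.9-fold higher in tHFSC (adjusted p = 0.0193). Hoxb3 and Hoxa2 were higher by 1.89 ± 0.32 (adjusted p = 0.0442) and 1.58 ± 0.28 (adjusted p = 0.0488), and Hoxc4 differed by -1.55 ± 0.25 (adjusted p = 0.0382). Of 345 solute carriers, the largest family of membrane transporters, 2 were higher and 12 lower, against 1.13% and 1.56% of all genes, and the median difference was -0.07. Slc2a1, the glucose transporter GLUT1, had levels of 3.16, 2.86, 2.79 and 2.83 in tHFSC and 4.67, 5.56, 4.78 and 4.34 in IFE and a difference of -1.93 ± 0.29 (SE, adjusted p = 0.0309). Slc16a3, which exports lactate, differed by -3.05 ± 0.40 (adjusted p = 0.0232). Slc6a6, the taurine transporter, and Slc23a1, a vitamin C transporter, were higher. Slc6a6 differed by 1.67 ± 0.26 (adjusted p = 0.0336), and Slc23a1, well above background on 1 IFE array, was at least 5.81-fold higher (adjusted p = 0.0426).

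A cluster of clade B serpins, protease inhibitors of the epidermis, on chromosome 1 held genes with differences of opposite sign. The cluster was chosen after its values were seen. Serpinb11 was among the highest genes, at 5.14, 1.50, 4.89 and 5.08 in tHFSC and -3.95, -2.79, -3.20 and -3.34 in IFE, with a difference of 7.48 ± 0.80 (SE, adjusted p = 0.014). Serpinb7 and Serpinb2, the genes next to it by probe position on mm9 (109276756, 109349063 and 109422046 on chromosome 1), were lower. Serpinb7 had levels of -3.97, -1.21, -3.46 and -6.33 in tHFSC and 0.47, 2.58, 1.80 and 1.53 in IFE and a difference of -5.33 ± 0.67 (SE, adjusted p = 0.0208). Serpinb2 had levels of -0.75, 0.58, -1.45 and -5.01 in tHFSC and 3.92, 4.74, 3.42 and 3.40 in IFE and a difference of -5.53 ± 0.73 (SE, adjusted p = 0.0232). Serpinb3a, on the other side of Serpinb11, differed by -2.65 ± 0.38 (SE, adjusted p = 0.0273). The other 7 tested members on chromosome 1 did not pass, nor did the 9 tested members elsewhere in the genome.

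The bases before the transcription start were searched on both strands for letters bound by factors named above: TGANTCA, which takes in TGAGTCA and its reverse complement TGACTCA, the site of FOS and JUN dimers, ACAAAG, the core of TCF sites, and TAATTA, a homeodomain core. Promoters in the RefSeq table (GRCm38.p6) were matched for 214 of the 341 higher and 304 of the 470 lower genes and for 15365 of all 30088 genes, with 250 bases before each start. TGANTCA was present for 7.48% of the higher, 9.87% of the lower and 6.76% of all matched genes, and TGAGTCA alone for 4.67%, 7.57% and 4.56%. ACAAAG was present for 15%, 16.4% and 16.5%, and TAATTA for 1.4%, 3.62% and 4.34%. Among the 24 genes with the highest and lowest differences, 22 had a promoter and 8 held at least 1 of the 3 motifs. Below are 4 of the 8, with both serpins, a receptor lower in tHFSC and a BMP antagonist higher in tHFSC. They were chosen after their values and motifs were seen. Capitals mark the 3 motifs on either strand. The windows are chr1:107362064-107362313, plus strand (Serpinb11), chr1:107511173-107511422, plus strand (Serpinb2), chr10:19712337-19712586, plus strand (Il20ra) and chr2:113758649-113758898, minus strand (Grem1), written 5′ to 3′ along the gene.
Serpinb11: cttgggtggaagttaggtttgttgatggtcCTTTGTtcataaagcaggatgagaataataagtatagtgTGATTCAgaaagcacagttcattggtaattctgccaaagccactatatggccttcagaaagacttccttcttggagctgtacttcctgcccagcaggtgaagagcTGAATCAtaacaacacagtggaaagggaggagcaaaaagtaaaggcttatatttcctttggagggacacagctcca
Serpinb2: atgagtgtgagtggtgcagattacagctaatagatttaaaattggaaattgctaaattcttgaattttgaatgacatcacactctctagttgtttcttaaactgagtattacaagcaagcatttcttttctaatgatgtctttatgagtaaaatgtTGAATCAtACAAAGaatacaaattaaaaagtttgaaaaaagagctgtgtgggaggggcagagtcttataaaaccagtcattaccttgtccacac
Il20ra: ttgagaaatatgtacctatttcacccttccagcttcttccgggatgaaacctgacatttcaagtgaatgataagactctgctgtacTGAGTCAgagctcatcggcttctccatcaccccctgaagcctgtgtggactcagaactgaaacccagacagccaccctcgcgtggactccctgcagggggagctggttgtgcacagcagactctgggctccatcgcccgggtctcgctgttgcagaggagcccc
Grem1: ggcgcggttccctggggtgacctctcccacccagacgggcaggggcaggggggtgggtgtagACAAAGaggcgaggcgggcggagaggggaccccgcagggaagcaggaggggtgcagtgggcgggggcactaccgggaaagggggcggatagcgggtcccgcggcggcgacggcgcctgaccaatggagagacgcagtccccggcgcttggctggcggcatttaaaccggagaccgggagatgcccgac
Serpinb11 and Serpinb2, which differed in opposite directions, both hold TGANTCA and ACAAAG in these bases, but with TGATTCA or TGAATCA and not the FOS and JUN site. In Il20ra the match is TGAGTCA, 164 bases before the start, and in Grem1 it is ACAAAG, 188 bases before the start. A match is a description of these letters and not of binding.

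The change of the difference with age was called for no gene by limma at an adjusted p under 0.05 (0.0% of those tested), and 1606 genes (5.34%) had an unadjusted p under 0.05. For the transgene the counts were 0 and 1638 (5.44%). These terms leave 1 residual degree of freedom, and for tHFSC age cannot be told apart from slide. The genes with the smallest p are given without a call. S100a9, an inflammation-linked calcium-binding protein, had levels of -6.68, -6.71, -6.05 and -5.36 in tHFSC and -0.82, 1.49, -6.82 and -6.37 in IFE. No tHFSC array and neither aged IFE array had it well above background, so the size of its change with age has no measured value (adjusted p = 0.773). Foxq1, a forkhead factor of hair differentiation, had levels of 3.18, 1.58, -3.13 and -4.11 in tHFSC and 4.55, 1.52, 3.85 and 4.87 in IFE. The aged tHFSC arrays were low and the aged IFE arrays high, with a change of -7.33 ± 1.03 (adjusted p = 0.773). For the transgene, Dct, a melanocyte enzyme, had levels of -0.10, -3.67, 0.24 and -4.13 in tHFSC and -4.21, -1.94, -4.53 and -3.93 in IFE, with 1 of the 4 IFE arrays well above background (adjusted p = 0.791). Hoxd9 had a change of 4.79 ± 0.70 (adjusted p = 0.791).

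Col17a1 encodes the transmembrane collagen of hemidesmosomes, of which the transgene carries the human form. The mouse probe had levels of 7.02, 6.97, 7.20 and 7.51 in tHFSC and 7.07, 7.35, 6.92 and 6.68 in IFE. The groups overlapped, and the difference was 0.17 ± 0.22 (SE, adjusted p = 0.75), with a 95% interval of -0.36 to 0.71. Prkci, which encodes the atypical protein kinase C of the polarity complex, had levels of 4.25, 4.10, 4.51 and 5.00 in tHFSC and 3.83, 4.92, 3.92 and 3.81 in IFE and a difference of 0.35 ± 0.36 (SE, adjusted p = 0.687). Its relative Prkcz differed by 0.73 ± 0.54 (SE, adjusted p = 0.55), and its 3 probes ran from -1.66 to 0.73. Of 21 polarity genes tested, 1 was lower and none higher, against 1.56% and 1.13% of all genes. The lower gene was Celsr1, which orients hair follicles through planar polarity, at 2.89, 3.62, 2.73 and 2.94 in tHFSC and 4.33, 5.41, 4.47 and 4.28 in IFE, with a difference of -1.58 ± 0.23 (SE, adjusted p = 0.0281).

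Markers of other cells were checked for a difference between tHFSC and IFE, which cannot show cells present in both. Summed linear levels of the Langerhans and myeloid markers were 19.26 to 28.94 in tHFSC and 11.38 to 22.77 in IFE. Those of the nerve markers were 30.27 to 35.28 and 37.15 to 78.05. Of 8 Langerhans and myeloid, 5 endothelial, 5 nerve, 3 Merkel, 5 muscle, 2 adipocyte and 2 red cell markers tested, none passed in either direction. Of 7 melanocyte markers, Mitf was higher by 1.78 ± 0.30 (adjusted p = 0.0442), and of 5 dermal papilla markers Crabp1 was higher and Rspo3 lower. Of 6 T cell markers, the shared marker Thy1 was lower. None of 12 sebaceous and 10 upper follicle genes passed.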

How the data were processed

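RNA of sorted cells was amplified to cDNA and measured on 1-colour Agilent arrays of 55681 probes, 1 array per group. The processed spot signal is an intensity that Feature Extraction 11.5.1.1 made per the file headers, on a design of build mm9. A value table deposited by the authors holds log2 values of the same arrays, with no stated scaling. For the young control tHFSC, the scanner output held 46417 probes, and the others were filled from that table without flags.

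The main values are log2 intensity minus the 75th percentile of the array. For the young control tHFSC, the median offset to the value table (8.185) was subtracted in its place. The 75th percentile of its incomplete output was 8.211. Probes well above background on at least 2 of 8 arrays and without an outlier flag were kept, and each gene took its probe with the highest mean. limma 3.58.1 (R 4.3.3) fitted pair and cell type with a variance trend (3 residual degrees of freedom), checked on simulated data. Leaving out an array leaves out its pair. Genes were named by largest difference, smallest p or membership of a list, with the sort, keratin and polarity genes added. Axin2, Calml3, Ddx3y, Dkk3, Fzd10, Lgr4, Mki67, Pou3f1, Ptch1, Runx1, Sfrp1, Trp63, Wnt4 and the collagen, Hox, solute carrier and Serpinb families were chosen after their values were seen. Members and lists were chosen with earlier results of these data known. Symbols were updated through RefSeq by accession for 28355 probes, by symbol for 3191 and by synonym for 270.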

Additional observations from a re-analysis of the deposited data

Results flagged for a closer look

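Of 58 sets of 4 values checked for a value far from the other 3, 6 were found, and chance gives about 1 in 20. The median correlation with the other arrays of its kind was 0.925 for the aged WT tHFSC array, above the other tHFSC arrays, and 0.918 for the young hCOL17A1 IFE array, below the other IFE arrays. The median difference of the upper follicle genes was 0.93 in the young control pair. In the aged WT pair, the median differences of T cell and endothelial markers were 1.03 and 0.84. Prkci had a level of 4.92 on the young hCOL17A1 IFE array, above the other IFE arrays.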

How the results depend on the processing

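Leaving out each array in turn gave 10 to 670 higher genes in the paired and up to 818 in the unpaired fit (539 without the young hCOL17A1 tHFSC array), and 4 to 1089 lower genes in the paired and 251 to 1504 in the unpaired fit (802 without the young hCOL17A1 tHFSC and 266 without the young WT IFE array). Unpaired groups gave 518 higher and 879 lower genes, a fit of all 16 arrays 662 and 1381, quantile normalization 302 lower and no variance trend 298 lower. The normexp background correction gave 240 and 423. The median of the fibroblast markers turned to -0.009217 under normexp, and that of the dermal papilla markers to -0.01169 with only the probes in all scanner files and to -0.00998 in the aged pairs. Ptch1 turned to 1.43 under normexp, where another of its probes was taken. No paired analysis by replicate number was possible because each group has 1 array. Over the settings other than leaving out an array, of which 1 used the aged pairs alone, gene results kept their direction and side of the threshold in 2107 cases, lost a call in 193, gained one in 29 and turned in 1. With an array left out they lost a call in 720 cases in the paired and 282 in the unpaired fit. No alternative called a gene for a change with age or transgene. Genes not well above background on an array are given there as bounds or by their levels.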
